A study of Mus musculus with 69 samples.

Results

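Hippocampal gene expression at weaning was compared between 10 Cdh13 knockout and 11 Cdh13 wildtype male mice that had all been separated from the dam as pups. The 21 animals were chosen by their labels for genotype, environment and age, out of 69 animals in the whole series, and each gave 1 RNA sequencing library. Knockouts and wildtypes alike came from litters that were taken from the dam for 3 h on each day between P1 and P14, with P1 the first postnatal day, and the hippocampus was dissected at P22, the day of weaning. Other animals of the series serve for 2 comparisons: 9 knockout and 8 wildtype control animals of P22, whose litters were handled but not separated, and 7 knockout and 10 wildtype separated animals that were kept to P66. The animals came from 2 rounds of breeding, called cohorts. The separated knockouts of P22 held 2 animals of cohort 1 and 8 of cohort 2, and the separated wildtypes 6 and 5, so cohort was a term in the fits reported here, apart from the alternatives named as without it or within 1 cohort. The labels give neither the kind of knockout allele, the strain nor the litter of an animal. P-values treat the animals as independent, and how far litter bears on them was not tested.

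Cdh13 encodes T-cadherin, a cadherin that is held to the cell surface by a lipid anchor and has neither a membrane-spanning nor a cytoplasmic part. It binds adiponectin and low-density lipoprotein, guides growing axons and blood vessels, and in the hippocampus is found in interneurons, where it limits inhibitory synapses onto pyramidal cells. Repeated separation of rodent pups from the dam is a widely used model of early-life stress that acts on the hormone axis of hypothalamus, pituitary and adrenal gland. The series crosses genotype with rearing to ask how the gene and the early environment act together.

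The count table used here ends on chromosome 8 and holds 9930 complete protein-coding genes, 7036 of which were abundant enough to be tested. Cdh13 itself was not analysed here, so the genotype labels could not be checked against its level. The 21 libraries held 11.7 to 15.1 M counts in this part of the genome (M, mega; median 13.3 M), and levels are given as counts per M of these counts (CPM). Markers of hippocampal principal cells, astrocytes, oligodendrocytes, microglia and interneurons were detected in the 21 libraries, as were markers of choroid plexus, ependyma, meninges, thalamus and striatum, which border the dissected tissue. No listed marker was at 0 in all 21. The first principal component of the 21 libraries carried 18% of the variance, with r2 = 0.593 to the mean level of the choroid plexus genes and r2 = 0.0522 to genotype. In bulk tissue fewer cells of a type and less RNA per cell cannot be told apart.

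No gene differed between separated knockout and wildtype animals past the threshold. In edgeR's quasi-likelihood test 0 of 7036 genes (0%) had a Benjamini-Hochberg adjusted p under 0.05, and the smallest adjusted p was 0.9999. An unadjusted p under 0.05 was found for 143 genes, 2.03% of those tested, where 5% would be 352 genes. Of the 143, 83 were higher in the knockouts (1.18% of the tested genes) and 60 were lower (0.853%). DESeq2 and limma-voom called 0 genes as well, with 148 and 158 genes at an unadjusted p under 0.05. The count was 237 without the separated knockout animal 12 of cohort 2, and still 0 genes were called. The CPM ranges of the 2 groups overlapped for every tested gene, so the share of genes without overlap was 0%.

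The differences were small and narrowly bounded. The median absolute log2 fold change was 0.04 and its median standard error 0.07. The 95% confidence interval of the difference lay within 1.5-fold in both directions for 6501 genes (92.4% of those tested) and within 1.2-fold for 5018 genes (71.3%). Among the 4442 genes whose mean log2 CPM was 5 or more the interval was within 1.5-fold for 4425 (99.6%). Only 4 genes had an absolute log2 fold change above 1. Values were spread evenly around 0, with 49.7% of the tested genes above it and a median log2 fold change of -0.00028.

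**Figure D1:**
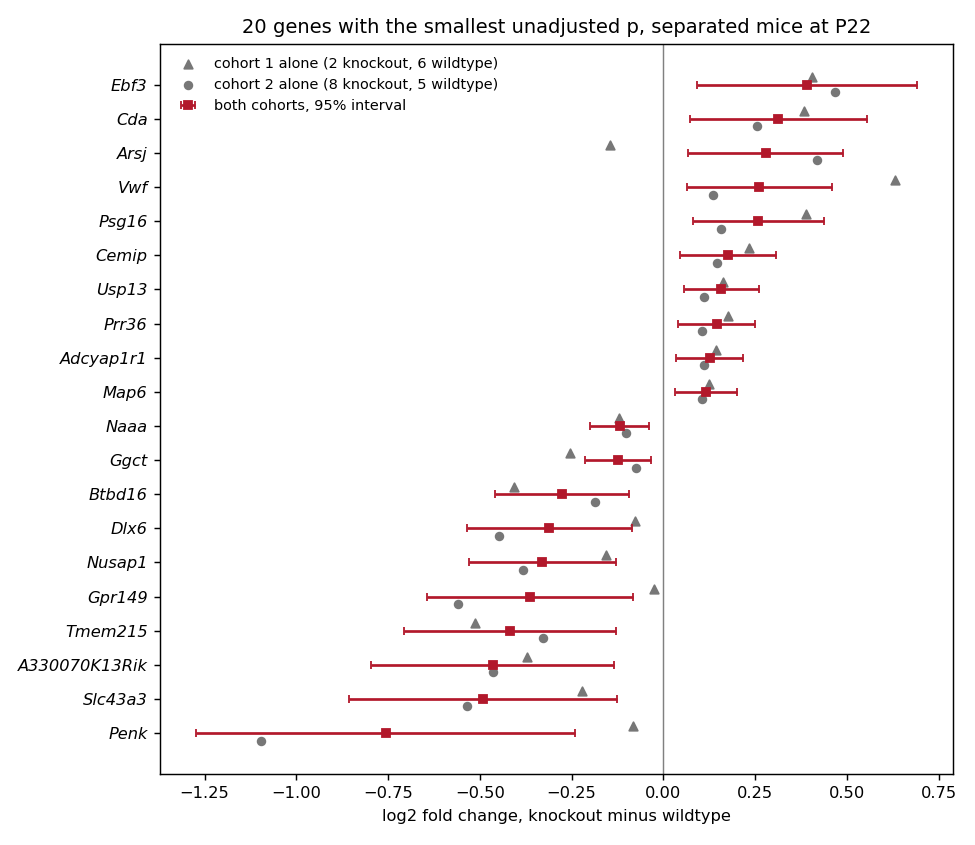
Log2 fold change (x axis, separated knockout minus separated wildtype at P22) of the 10 higher and the 10 lower genes with the smallest unadjusted p, sorted by size (y axis). Squares with bars are the estimate from both cohorts with its 95% confidence interval, triangles cohort 1 alone and circles cohort 2 alone. None of the 20 passed the adjusted threshold, and Arsj is the gene whose cohort 1 value (-0.15) lies on the other side of 0 from its joint estimate (0.28).

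The gene with the smallest unadjusted p was Nusap1 (ENSMUSG00000027306.15, chr2:119618298-119651244, plus strand), which encodes a microtubule-binding protein of the mitotic spindle. Its lowest, median and highest levels were 2.88, 3.14 and 3.60 CPM in the 10 knockouts, against 2.98, 3.77 and 4.97 CPM in the 11 wildtypes. All 10 knockouts lay below the wildtype median, while the ranges overlapped. The log2 fold change was -0.33 (95% interval -0.53 to -0.13, unadjusted p = 0.00189, adjusted p = 0.9999, edgeR). Its head-to-head neighbour Oip5 (chr2:119609512-119618469, minus strand), which encodes a protein that loads the centromeric histone onto centromeres, had 1.28, 2.13 and 2.69 CPM in knockouts and 1.80, 2.55 and 3.50 CPM in wildtypes. For Oip5 the log2 fold change was -0.37 (95% interval -0.65 to -0.08). The 2 genes overlap by 172 bases on opposite strands, and whether reads were counted by strand is not given in the sources used here, so reads in the overlap cannot be told apart. Mki67, the usual marker of dividing cells, had 7.49 to 13.9 CPM in knockouts and 7.99 to 15.7 CPM in wildtypes, with a log2 fold change of -0.02 (95% interval -0.33 to 0.29). Oip5 and Mki67 were picked after their values were seen.

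The promoters of this gene pair are shown because the 2 genes start close together on opposite strands and both values lay lower in knockouts. Each window runs from 250 bases before to 50 bases after the gene's start in RefSeq on GRCm38.p6, in the direction of the gene. The Nusap1 window is chr2:119618048-119618347 on the plus strand and the Oip5 window chr2:119618456-119618755 on the minus strand. The windows share no base, the stretch between them is in neither, and the Nusap1 window lies inside the Oip5 gene. Capitals mark the CCAAT box (CCAAT) and the cell cycle homology region (TTTGAA or TTTAAA), both known from promoters of cell division genes and both searched on either strand, so that CCAAT can appear as ATTGG and TTTGAA as TTCAAA.
Oip5: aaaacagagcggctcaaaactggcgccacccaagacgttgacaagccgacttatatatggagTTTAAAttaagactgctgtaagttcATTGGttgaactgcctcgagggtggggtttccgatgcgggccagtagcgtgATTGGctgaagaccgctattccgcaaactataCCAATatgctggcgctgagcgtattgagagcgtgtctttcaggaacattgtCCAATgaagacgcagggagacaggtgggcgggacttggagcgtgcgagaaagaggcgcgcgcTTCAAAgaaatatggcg
Nusap1: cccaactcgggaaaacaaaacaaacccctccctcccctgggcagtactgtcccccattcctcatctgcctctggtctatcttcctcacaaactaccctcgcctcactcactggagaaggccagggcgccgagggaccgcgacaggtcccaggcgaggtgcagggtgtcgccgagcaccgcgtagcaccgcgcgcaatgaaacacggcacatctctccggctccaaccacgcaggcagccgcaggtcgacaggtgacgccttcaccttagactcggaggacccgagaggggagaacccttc
The Oip5 window holds 4 CCAAT matches and 2 matches of the cell cycle homology region, and the Nusap1 window holds 0 and 0. Among 32851 promoter windows of the same length, 37.4% held a CCAAT match and 27.6% a match of the cell cycle homology region. A match is a run of letters and no measure of binding.

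Among the other lower genes, Naaa (chr5:92257659-92278170) encodes the lysosomal enzyme that breaks down palmitoylethanolamide, an anti-inflammatory lipid. Its lowest, median and highest levels were 67.4, 75.5 and 79.8 CPM in knockouts and 73.95, 79.8 and 86.8 CPM in wildtypes. The ranges overlapped between 73.95 and 79.8 CPM, 9 of 10 knockouts lay below the wildtype median, and the log2 fold change was -0.12 (95% interval -0.20 to -0.04). Btbd16 (chr7:130774069-130825899) had 6.64, 7.41 and 9.62 CPM in knockouts and 8.15, 9.30 and 11.4 CPM in wildtypes. Here 6 of 10 knockouts lay below every wildtype, and the log2 fold change was -0.28 (95% interval -0.46 to -0.09). Ggct, the gene of an enzyme of glutathione breakdown, had a log2 fold change of -0.12, and again 6 of 10 knockouts lay below every wildtype (31.3 to 38.7 CPM in knockouts, 34.9 to 41.7 CPM in wildtypes). Tmem215 (-0.42), A330070K13Rik (-0.47), Slc43a3 (-0.49), which encodes a purine base transporter, and Gpr149 (-0.36), an orphan receptor gene, completed the lower genes together with Penk and Dlx6. These genes were picked by their p in these same animals. Intervals away from 0 and counts of animals beyond the other group follow in part from that choice. Naaa, Btbd16 and Ggct each had an adjusted p of 0.9999 (edgeR).

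Penk (chr4:4133531-4138819) encodes proenkephalin, the precursor of the enkephalin opioid peptides, and had the largest difference of the 20 genes on the log2 scale. Its lowest, median and highest levels were 40.0, 51.2 and 103.8 CPM in knockouts, against 38.1, 95.7 and 235.8 CPM in wildtypes. The wildtypes were spread over a wider range that included the lowest animal of all, and no knockout lay outside it. The log2 fold change was -0.76 (95% interval -1.27 to -0.24, unadjusted p = 0.00523, adjusted p = 0.9999, edgeR). Within cohorts it was -0.08 in cohort 1 and -1.10 in cohort 2. Penk is also a marker of striatal projection neurons, and the mean log2 CPM of the 6 listed striatal genes, Penk among them, was 4.45 to 5.25 in knockouts and 4.21 to 5.83 in wildtypes. The wildtype with the most Penk, animal 1 of cohort 1, was also the animal with the highest striatal level. The part of striatal RNA in the Penk difference was not tested.

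**Figure D2:**
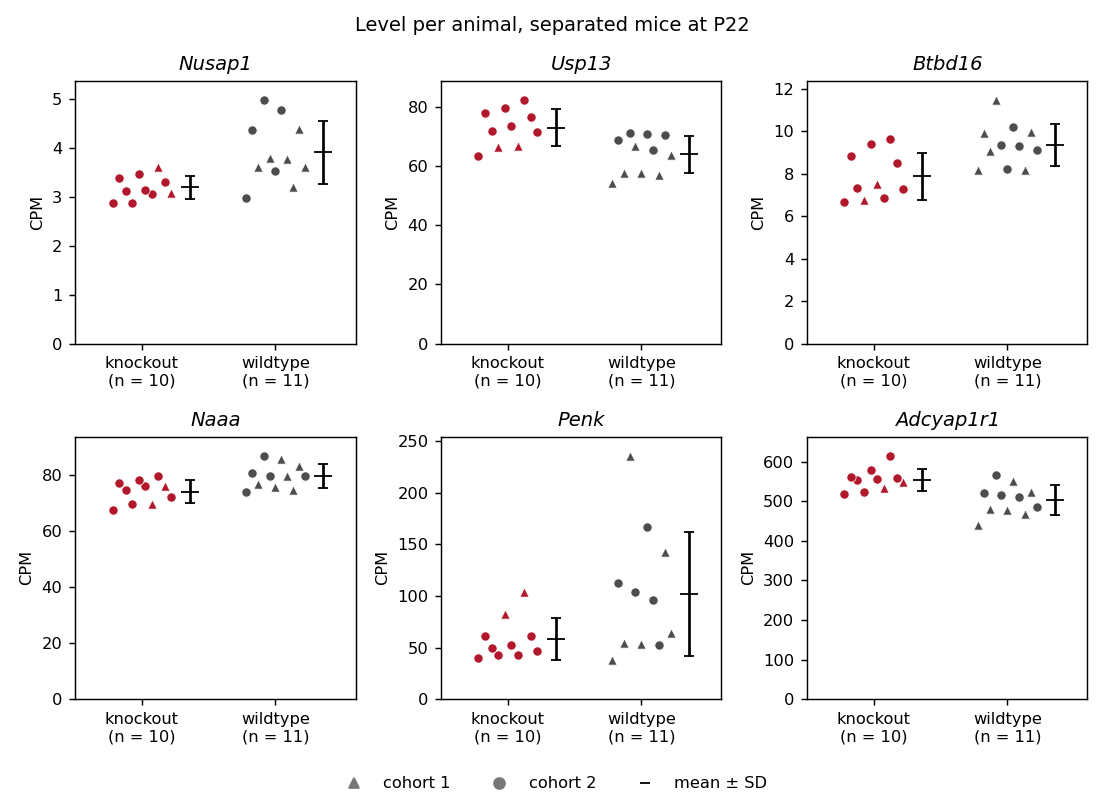
Level in CPM (y axis, from 0) of 6 genes in each separated animal of P22, with 10 knockouts (red, left) and 11 wildtypes (grey, right) per panel. Triangles are animals of cohort 1, circles of cohort 2, and the bar beside each group is its mean ± SD. The groups overlap in all 6 panels, and in the Penk panel wildtypes reach 235.8 CPM where knockouts end at 103.8 CPM.

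On the higher side, where genes were again picked by their p in these animals, Usp13 (ENSMUSG00000056900.13, chr3:32817546-32938071), which encodes a deubiquitinating enzyme, came first. It had 63.4, 72.7 and 82.2 CPM as lowest, median and highest level in knockouts and 54.4, 65.3 and 71.3 CPM in wildtypes. Of the 10 knockouts, 7 lay above every wildtype. The log2 fold change was 0.16 (95% interval 0.06 to 0.26, unadjusted p = 0.00319, adjusted p = 0.9999, edgeR), and it was 0.16 in cohort 1 and 0.11 in cohort 2. Adcyap1r1 (chr6:55451978-55501451), the gene of the PAC1 receptor for the stress-related neuropeptide PACAP, had 517, 554 and 614 CPM in knockouts and 439.9, 509 and 566 CPM in wildtypes. All 10 knockouts were above the wildtype median, with 2 above every wildtype, and the log2 fold change was 0.13 (95% interval 0.04 to 0.22), with 0.14 in cohort 1 and 0.11 in cohort 2. Map6, whose product stabilises neuronal microtubules against cold, had a log2 fold change of 0.12 (275 to 334 CPM in knockouts, 226 to 309.5 CPM in wildtypes), with 5 knockouts above every wildtype.

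Of the remaining higher genes, Cemip, which encodes a protein that degrades hyaluronan, had a log2 fold change of 0.18, and Prr36 one of 0.15. Vwf, the gene of the von Willebrand factor of endothelial cells, had a value of 0.26, which was 0.63 in cohort 1 and 0.14 in cohort 2. Ebf3, a transcription factor gene of Cajal-Retzius cells, had 2.81 to 5.54 CPM in knockouts and 2.44 to 4.16 CPM in wildtypes, with a log2 fold change of 0.39. Reln, the product of which is secreted by Cajal-Retzius cells and interneurons, had 159, 217 and 265 CPM in knockouts and 165, 180.3 and 222 CPM in wildtypes, with a log2 fold change of 0.17 (picked after its value was seen). Reln is also in the interneuron list, where 14 of 20 genes were lower. Whether Cajal-Retzius cells differed was not tested. Cda, the cytidine deaminase gene, had a log2 fold change of 0.31. Arsj, an arylsulfatase gene, had 0.28, but -0.15 in cohort 1 and 0.42 in cohort 2. Psg16 belongs to a family of near-identical pregnancy-specific glycoprotein genes among which reads can be split, so its log2 fold change of 0.26 is uncertain.

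Of the 143 genes (2.03% of those tested), 6 pairs were next to each other among the tested genes of a chromosome, and 5 of these pairs had the same direction. How many pairs that share would give by chance was not computed, so nothing about clustering is read from the count. Beside the overlapping Oip5 and Nusap1 the pairs included Naaa, Ppef2 and Uso1 in a row on chromosome 5, with log2 fold changes of -0.12, -0.44 and -0.07. Ppef2 is counted in a pair with each of its neighbours. Ppef2 encodes a protein phosphatase of sensory neurons and lies 1381 bases from Naaa, and Uso1, 23881 bases further, encodes a vesicle tethering factor of the Golgi. The pair Dlx6 and Dlx5 on chromosome 6 encodes homeodomain transcription factors of forebrain GABA neurons, and they run towards each other with ends 9237 bases apart. Dlx6 had 5.70, 7.78 and 9.62 CPM in knockouts and 5.88, 9.85 and 13.01 CPM in wildtypes, and all 10 knockouts lay below the wildtype median. The log2 fold changes were -0.31 for Dlx6 and -0.23 for Dlx5. In cohort 1 Dlx6 had -0.08 and in cohort 2 -0.45. Ppef2 and Uso1 were picked after their values were seen.

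The widest list differences were found in genes of tissues that border the hippocampus. Of 14 tested markers of choroid plexus epithelium, the tissue that makes cerebrospinal fluid, 13 were lower in knockouts and 1 higher, where 50.3% of all tested genes were lower and 49.7% higher. Their median log2 fold change was -0.43, and none had an unadjusted p under 0.05. Kl, the klotho gene, had 39.3, 71.6 and 187 CPM in knockouts and 49.4, 89.1 and 132 CPM in wildtypes (log2 fold change -0.29, 95% interval -0.82 to 0.24). Knockouts held both the lowest and the highest animals. The same was true of 1500015O10Rik (6.38, 24.04 and 97.8 CPM in knockouts, 9.46, 45.8 and 63.2 CPM in wildtypes, log2 fold change -0.50) and of F5, the coagulation factor V gene (2.88 to 59.9 CPM in knockouts, 4.99 to 38.7 CPM in wildtypes, log2 fold change -0.33, 95% interval -1.24 to 0.57). Without knockout 12 of cohort 2 the log2 fold change was -0.47 for Kl, -0.81 for 1500015O10Rik and -0.62 for F5, and without wildtype 1 of cohort 1 it was -0.19 for F5. Slc29a4, which encodes a monoamine transporter and is also expressed by neurons, had a log2 fold change of 0.00, while Msx1 had -0.38 and Steap1 -0.65.

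The mean log2 CPM of the 14 choroid plexus genes was 2.46, 4.09 and 5.72 as lowest, median and highest value in knockouts and 3.07, 4.67 and 5.24 in wildtypes. The 2 lowest animals were knockouts 92 and 74 of cohort 2 (2.46 and 2.70), and the highest was knockout 12 of cohort 2. The list median was -0.52 in cohort 1 and -0.27 in cohort 2. It was -0.21 without animals 92 and 74, -0.68 without animal 12, and -0.81 in limma-voom. Markers of ependyma and motile cilia lay on the same side: 25 of 29 were lower in knockouts. An unadjusted p under 0.05 was found for 4 of these, against a share of 2.03% over all tested genes. The median log2 fold change of the ependymal list was -0.25, with -0.20 in cohort 1 and -0.16 in cohort 2. It was -0.10 without animals 92 and 74. Tctex1d4, a dynein light chain gene, had 0.461, 1.47 and 3.42 CPM in knockouts and 0.602, 2.30 and 5.14 CPM in wildtypes (log2 fold change -0.81), and Stoml3 had a log2 fold change of -0.79. The most abundant members of that list, Cfap46 (-0.03), Ccdc39 (0.04), Drc1 (-0.01) and Tm4sf1 (-0.09), had values near 0. Cfap46 ran from 105.5 to 124.7 CPM in knockouts, while the mean log2 CPM of the ependymal list ran from 1.96 to 3.59. Whether these members follow the amount of ependyma was not tested.

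Markers of meninges and fibroblasts lay on the other side, with 9 of 11 higher in knockouts, 2 at an unadjusted p under 0.05 and a median log2 fold change of 0.24. Slc6a13, which encodes a GABA and taurine transporter of the meninges, had 13.6, 18.4 and 23.7 CPM in knockouts and 12.1, 13.4 and 17.5 CPM in wildtypes. Of the knockouts, 7 lay above every wildtype, and the log2 fold change was 0.36 (95% interval 0.02 to 0.70). Lamc3, the laminin gamma 3 chain gene, had a log2 fold change of 0.24. Thalamic and habenular markers were higher in 8 of 10, 3 of them at an unadjusted p under 0.05. Their median was 0.26, with 0.12 in cohort 1 and 0.30 in cohort 2. The share of all tested genes with an unadjusted p under 0.05 was 2.03%. Whether members of a list varied independently of each other was not tested. Shox2, a transcription factor gene of thalamus and habenula, had 0.226, 3.68 and 10.2 CPM in knockouts and 0.170, 1.01 and 5.30 CPM in wildtypes. The log2 fold change of Shox2 was 1.43 (95% interval 0.32 to 2.55), with 0.47 in cohort 1 and 2.00 in cohort 2. Without knockout 92 of cohort 2 it was 1.14. Ntng1, the netrin-G1 gene of thalamic axons, had a log2 fold change of 0.20. The striatal list had 2 of 6 genes higher and a median of -0.17, which was 0.11 in cohort 1 and -0.25 in cohort 2. It was -0.26 without knockout 61 of cohort 1 and -0.09 without wildtype 1 of cohort 1.

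**Figure D3:**
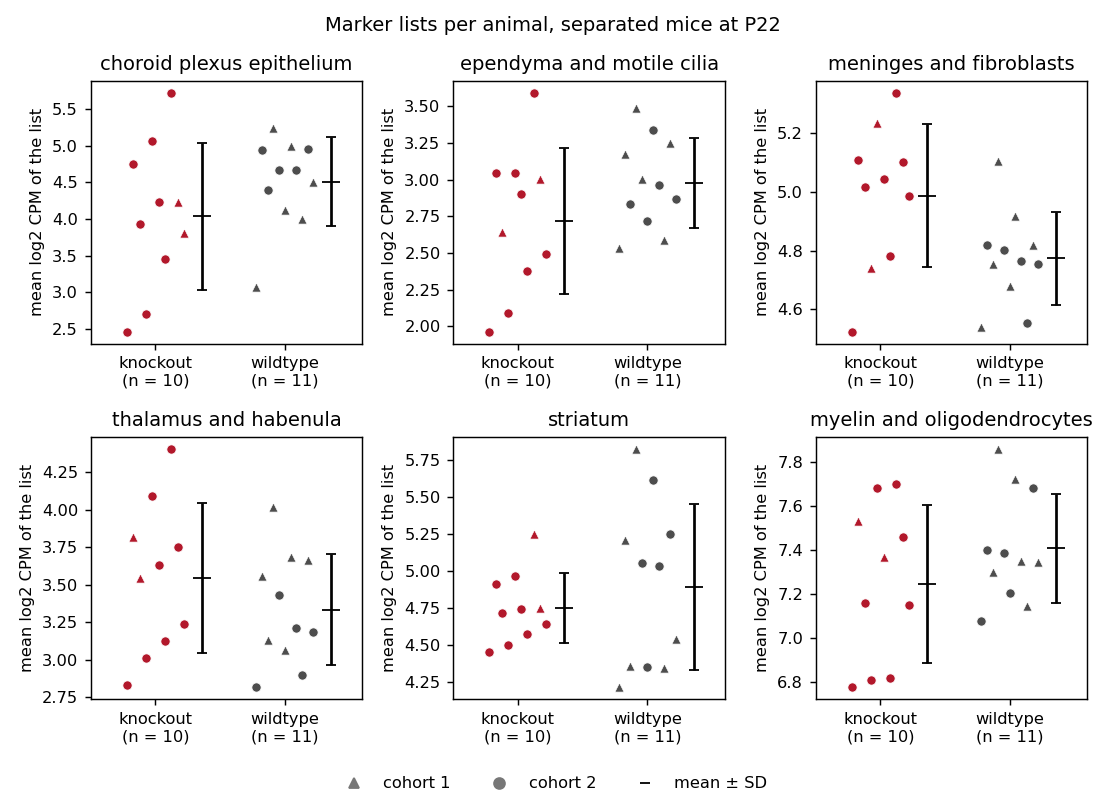
Mean log2 CPM of 6 marker lists (y axis) in each separated animal of P22, with knockouts (red, left) and wildtypes (grey, right). Triangles are cohort 1, circles cohort 2, and the bar beside each group is its mean ± SD. For choroid plexus the knockouts run from 2.46 to 5.72 and enclose the wildtypes, which run from 3.07 to 5.24.

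For cell types that the hippocampus itself holds, the list medians were closer to 0. Bulk libraries do not show how much of this RNA came from bordering tissue. All 18 tested genes of myelin and oligodendrocytes had lower values in knockouts, none at an unadjusted p under 0.05, with a median log2 fold change of -0.13 that was -0.01 in cohort 1 and -0.11 in cohort 2, and -0.08 without wildtype 90 of cohort 2. Mal, a myelin proteolipid gene, had 641, 1004 and 1478 CPM in knockouts and 1009, 1104 and 1600.0 CPM in wildtypes (log2 fold change -0.21, 95% interval -0.49 to 0.07), and Ppp1r14a had -0.22. Oligodendrocyte precursors (median -0.01 over 8 genes, with Matn4 at -0.08 and Tnr at 0.04), astrocytes (0.01 over 15) and microglia and macrophages (-0.02 over 24) were close to the median of all genes. Slc6a11, the gene of the astrocytic GABA transporter GAT-3, was the astrocyte gene with the smallest p. It had 310.2, 384 and 418 CPM in knockouts and 302, 337 and 381 CPM in wildtypes, a log2 fold change of 0.15 (95% interval 0.03 to 0.26), while F3, the tissue factor gene, had -0.10. Among microglial genes Ctss, a lysosomal cathepsin gene, had -0.13 and Pf4 0.36. Endothelial genes were higher in 14 of 20 with a median of 0.02, which was 0.13 in cohort 1 and 0.00 in cohort 2, and after Vwf the next by p was Podxl (0.10). Pericyte and smooth muscle genes (5 of 7 higher) had a median of 0.07, with Kcnj8 at 0.16 and Anpep at 0.19.

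Principal cells of the dentate gyrus and the CA fields had 10 of 16 markers higher and a median of 0.07. Neurod6, a transcription factor gene of CA pyramidal cells, had -0.15 and Wfs1, a gene enriched in CA1, 0.25, neither at an unadjusted p under 0.05. Markers of neocortex, which lies outside the hippocampus, also had a small median, 0.07 over 10 genes, with Rprm at 0.16 and Whrn at 0.10. Interneuron markers, of interest because interneurons express Cdh13, had 6 of 20 higher with a median of -0.03. Dlx6, Dlx5 and Reln were the 3 with an unadjusted p under 0.05, against a share of 2.03% over all tested genes. The mean log2 CPM of the interneuron list was 6.23, 6.35 and 6.46 in knockouts against 6.30, 6.37 and 6.49 in wildtypes, so the groups shared nearly the whole range. Stem cell and newborn neuron genes, 15 of 25 higher, had a median of 0.01. Among them Draxin, the gene of a secreted axon guidance factor, had a log2 fold change of 0.24 and Dpysl5 one of 0.11.

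Genes related to the function of T-cadherin gave the following. Of 18 cadherin, protocadherin and catenin genes held, 17 were tested, 14 of these were higher in knockouts and none had an unadjusted p under 0.05. The median log2 fold change was 0.07, with 0.02 in cohort 1 and 0.10 in cohort 2. Fat4, the gene of a giant atypical cadherin, had 91.98, 101 and 132 CPM in knockouts and 80.1, 91.5 and 123 CPM in wildtypes (log2 fold change 0.14, 95% interval -0.02 to 0.30), and Dchs2 had -0.24 (95% interval -0.52 to 0.05). Adiponectin and insulin signalling genes had 7 of 15 higher, with Igfbp5 at 0.08 and Igfbp2 at -0.25. Igfbp2 is abundant in choroid plexus, and knockout 12 of cohort 2, the animal with the highest choroid plexus level, also had its highest level, 195 CPM. Without that animal the log2 fold change of Igfbp2 was -0.43. Axon guidance genes had 22 of 34 higher with a median of 0.03. Of these, 3 had an unadjusted p under 0.05: Epha2 (0.24) and Epha8 (0.27), both ephrin receptor genes, and Ntng1. Over all tested genes that share was 2.03%.

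Among receptors and channels of synapses the list medians were within a few hundredths of 0. GABA receptor genes were split evenly, 5 of 10 higher. Gabrd, the delta subunit of extrasynaptic receptors, had 50.8, 62.4 and 77.7 CPM in knockouts and 40.3, 58.5 and 65.6 CPM in wildtypes (log2 fold change 0.11, 95% interval -0.06 to 0.27). Gabra5, the alpha 5 subunit that is enriched in hippocampal pyramidal cells, had -0.09 (95% interval -0.23 to 0.05). Glutamate receptor genes were higher in 11 of 12 with a median of 0.04, and none had an unadjusted p under 0.05. Grin2d, an NMDA receptor subunit gene of interneurons, had 0.10, and Grm8, a presynaptic metabotropic receptor gene, had 0.24. Presynaptic release genes (12 of 22 higher) had a median of 0.01, with Rims3 at 0.19. Voltage-gated potassium and sodium channel genes were higher in 19 of 26 with a median of 0.04. Kcnc4, the Kv3.4 channel gene, had 162, 201.5 and 239.5 CPM in knockouts and 135, 168 and 209 CPM in wildtypes (log2 fold change 0.19, 95% interval 0.04 to 0.33), and Kcnq5 had -0.19.

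Genes of the stress response were examined because all 21 animals had been separated. Genes of the stress axis and the oxytocin system were higher in 7 of 10, with a median log2 fold change of 0.04. Adcyap1r1 and Trh were the 2 with an unadjusted p under 0.05, against a share of 2.03% over all tested genes. Trh, which encodes thyrotropin-releasing hormone, had 1.43, 2.57 and 14.95 CPM in knockouts and 1.14, 1.87 and 6.90 CPM in wildtypes. Most animals of both groups were low, and the log2 fold change of 0.97 (95% interval 0.02 to 1.91) was 0.61 without knockout 36 of cohort 2. Neuropeptide genes were split 8 to 8, and apart from Penk and Trh the gene with an unadjusted p under 0.05 was Cort, the cortistatin gene of interneurons (0.26). Glucocorticoid-induced genes were split 4 to 4, with Pdk4 at -0.11 and Sult1a1 at -0.16, and the immediate early genes that mark recent neuronal activity 8 to 8, with Nr4a3 at -0.13 and Klf4 at 0.16. Clock genes had 9 of 11 higher, while the 1 clock gene with an unadjusted p under 0.05 was lower in knockouts. The clock list had a median of 0.02, which was 0.13 in cohort 1 and -0.03 in cohort 2. Arntl, which encodes the clock factor BMAL1, had 0.06.

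Housekeeping lists showed shifts of a few hundredths. Cytosolic ribosomal protein genes were lower in 31 of 36 with a median log2 fold change of -0.02, which was -0.09 in cohort 1 and 0.03 in cohort 2. Nuclear genes of oxidative phosphorylation were lower in 28 of 36 with a median of -0.02, which was -0.08 in cohort 1 and 0.01 in cohort 2. The members with the smallest p were Rpl7 (-0.05) and Rpl5 (-0.04), Cox6b2 (-0.31) and Cox6a2 (0.28). Mitochondrial ribosomal genes had 17 of 36 higher, with Mrps14 at -0.09 and Mrps5 at 0.04. Cholesterol synthesis genes had a median of 0.00 over 9, with Cyp51 at -0.06 and Fdps at -0.04, and complement and inflammation genes one of -0.03 over 19, with Serping1, the complement C1 inhibitor gene, at 0.24 and Gbp2 at -0.42. Gbp2 had 3.02, 5.69 and 6.07 CPM in knockouts and 3.92, 5.93 and 22.5 CPM in wildtypes, and its log2 fold change was -0.16 without wildtype 29 of cohort 1. Ribosomal protein genes have many near-identical pseudogene copies, so their counts are uncertain.

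Whether the genotype difference depended on rearing was tested by subtracting the knockout minus wildtype difference of the control animals from that of the separated animals in the same fit. By edgeR 0 of 7036 genes passed (0%), with a smallest adjusted p of 0.296, and 596 genes (8.47%) had an unadjusted p under 0.05. DESeq2 and limma-voom also called 0, with 599 and 617 genes at an unadjusted p under 0.05. The control animals alone, 9 knockouts against 8 wildtypes, gave 0 called genes (0%) and 851 (12.1%) with an unadjusted p under 0.05, against the 143 (2.03%) in separated animals. Naaa, Usp13 and Bdh2 had the smallest p in the test of the difference, each with an adjusted p = 0.2955 (edgeR). Usp13 averaged 73.0 ± 6.14 CPM in separated knockouts (SD, n = 10) and 64.01 ± 6.31 CPM in separated wildtypes (SD, n = 11), against 65.3 ± 5.21 CPM in control knockouts (SD, n = 9) and 72.5 ± 3.67 CPM in control wildtypes (SD, n = 8). The log2 fold change of Usp13 was thus 0.16 in separated and -0.16 in control animals, and their difference was 0.31. Naaa had -0.12 in separated and 0.13 in control animals (difference -0.25). Bdh2, the gene of a dehydrogenase of ketone body and siderophore metabolism, had -0.33 in separated and 0.51 in control animals (difference -0.84).

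Several lists had medians of opposite sign in the 2 rearing groups. The choroid plexus median was -0.43 in separated and 0.72 in control animals, the ependymal -0.25 and 0.27, the myelin -0.13 and 0.14, the meningeal 0.24 and -0.11, and the cadherin 0.07 and -0.08. In control animals the mean log2 CPM of the choroid plexus genes was 2.63, 5.19 and 5.86 as lowest, median and highest value in knockouts and 3.17, 4.07 and 5.37 in wildtypes, so both genotypes spread as widely as in the separated groups. With this level as a covariate the test of the difference called 0 genes (smallest adjusted p 0.142), and 921 genes had an unadjusted p under 0.05, against 596 without it. Glutamate receptor genes had medians of 0.04 and -0.12, cytosolic ribosomal genes -0.02 and 0.09, and potassium and sodium channel genes 0.04 and -0.09. GABA receptor genes had medians of the same sign, -0.0033 in separated and -0.16 in control animals. In the test of the difference 8 of 14 choroid plexus and 10 of 29 ependymal genes had an unadjusted p under 0.05 (edgeR). The count was 10 of 26 for channels, 3 of 18 for myelin, 3 of 17 for cadherins and 2 of 12 for glutamate receptors. For meninges it was 0 of 11, for GABA receptors 1 of 10 and for cytosolic ribosomal genes 1 of 36. The share over all tested genes was 8.47%. Trh had log2 fold changes of 0.97 and -1.60, with an adjusted p of 0.584 for the difference (edgeR).

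**Figure D4:**
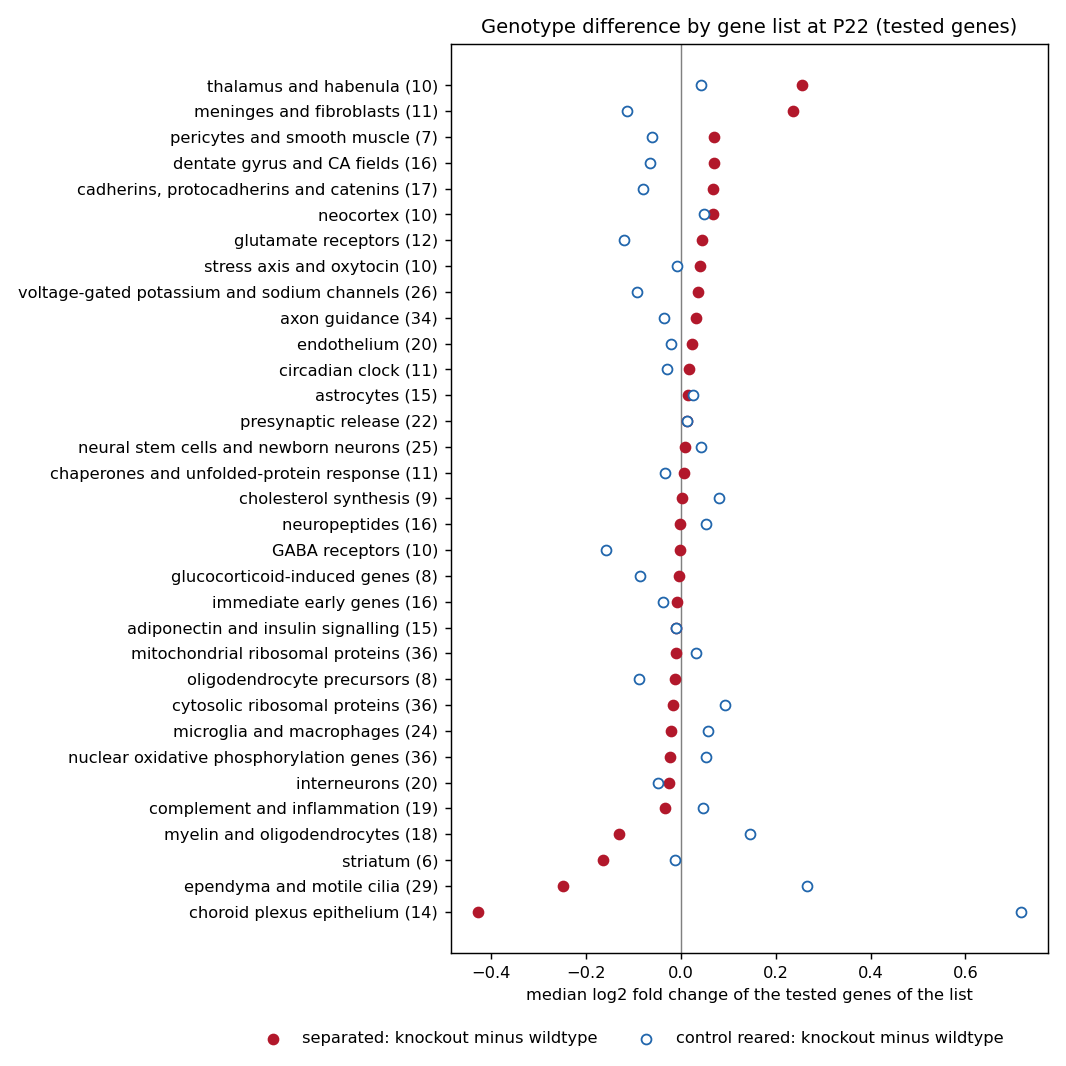
Median log2 fold change, knockout minus wildtype (x axis), over the tested genes of each of 33 lists (y axis, number of tested genes in parentheses) at P22. Filled red points are separated animals and open blue points control animals. The choroid plexus list spans the widest gap, -0.43 in separated against 0.72 in control animals, and no gene of any list passed the adjusted threshold in either group.

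The genotype difference of separated animals was also set against that at P66, measured in other animals. In 1 fit of all 69 libraries 0 of 7131 genes (0%) passed for a change of the difference with age by edgeR, with a smallest adjusted p of 0.608, and 527 (7.39%) had an unadjusted p under 0.05. DESeq2 and limma-voom had 528 and 556 such genes. At P66 itself 0 genes were called (0%) and 830 (11.6%) had an unadjusted p under 0.05. Hspa5, the gene of the endoplasmic reticulum chaperone BiP, had 481, 613 and 905 CPM in P22 knockouts and 482, 582 and 930.4 CPM in P22 wildtypes, the same range, with a log2 fold change of 0.01 (95% interval -0.21 to 0.23). At P66 its value was -0.50, and the change with age, -0.54, had an adjusted p = 0.659 (edgeR). Pdia3, the gene of a protein disulfide isomerase of the same compartment, had -0.04 at P22 and -0.24 at P66, the chaperone gene Hsph1 -0.04 and -0.12, and Garem2 -0.01 and 0.25. These 4 genes were taken because earlier results of these data had pointed to them at P66.

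The chaperone list as a whole had 6 of 11 genes higher at P22 and a median of 0.01, with Dnaja1 at -0.06 and Hspd1 at -0.05 as members with the smallest p. At P66 0 of 11 were higher, with a median of -0.12, where 3670 of the 7036 genes tested at P22 were higher. The list was chosen with earlier results of these data known, so this contrast is no test of a change with age. The 3 genes with the smallest p for a change with age were Usp13, Knstrn and Veph1, each with an adjusted p = 0.608 (edgeR). Usp13 had 0.16 at P22 and -0.11 at P66. Knstrn, which encodes a spindle and kinetochore protein, had 0.11 and -0.54, and Veph1 had -0.36 and 0.56. Of the genes with the smallest p at P22, Nusap1 had a log2 fold change of -0.20, Penk -0.31, Naaa 0.03 and Adcyap1r1 -0.03 at P66, and none of these passed.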

How the data were processed

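RNA of 1 hippocampus per animal was sequenced. The authors deposited raw read counts per gene without normalization, 1 column per animal. Per the submitters' processing notes the tools were limma 3.34.9 and edgeR, with cutadapt 1.16 and FastQC 0.11.4. Aligner, counter and build: not given in the sources used here. In all 9930 complete records were held, and 1 broken record was left out. GENCODE M21 lists 99.55% of the identifiers, 96.5% of them at identical coordinates, so positions are on GRCm38. No column was left unmapped, and none of 100 within-group pairs among the 21 libraries was a repeat (chi-square over degrees of freedom 6.64 to 62.4).

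From the counts, genes were kept by filterByExpr (minimum count 10, minimum total 15) and normalized by TMM in R 4.3.3 with edgeR 4.0.16. All 4 groups of P22 (38 libraries) were fitted by quasi-likelihood with terms for group and cohort, and the change with age in all 69 libraries. Benjamini-Hochberg adjustment ran over all tested genes, with a threshold of 0.05. Levels are CPM on TMM-scaled totals, list levels are means of log2 CPM (prior count 2), and intervals are at 95%. The code was tested on simulated data. Alternatives were DESeq2 1.42.0, limma-voom (limma 3.58.1), other filters, normalization and covariates, single cohorts, and leaving out each library.

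The comparison and gene lists were chosen with earlier results of these data known. Named genes are the 10 higher and 10 lower genes with the smallest p and mean log2 CPM not below 0, the 2 members of each list with the smallest p, the 4 most abundant choroid plexus and ependymal members, 4 genes known from P66 and the 3 with the smallest p in each test of a difference. Of the genes outside this rule that are named, each is marked. A few genes named by the rule are left out of the text.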

Additional observations from a re-analysis of the deposited data

Results flagged for a closer look

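In 131 measures (levels of named genes and of lists) over the 10 separated knockouts, 6 values stood further from their neighbours than Dixon's 95% limit allows (4.58% of the measures, where chance flags about 5%). Animal 9 of cohort 2 had 26.6 CPM of Lamc3 (next animal 22.4 CPM). Animal 36 of cohort 2 had 112.8 CPM of Ntng1 (next 86.9 CPM). Animal 12 of cohort 2 had 194.6 CPM of Igfbp2 (next 105.8 CPM), and it was also the animal with the highest choroid plexus level. Animal 23 of cohort 2 was low in 3 measures: 3.02 CPM of Gbp2 (next 4.74 CPM), a mean log2 CPM of 6.43 for oligodendrocyte precursor genes (next 6.59) and of 3.88 for complement and inflammation genes (next 4.15).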

How the results depend on the processing

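All 3 tests (knockout against wildtype in separated animals, its dependence on rearing and its change with age) called 0 genes under every alternative run for them. Single cohorts, other sets of libraries and leaving out libraries were run for knockout against wildtype in separated animals only. The choroid plexus level as covariate was not run for the change with age. The 143 genes with an unadjusted p under 0.05 became 276 without a filter on low counts, where more genes are tested, and 218 without the cohort term. Leaving out 1 library gave 105 to 237, the highest without separated knockout 12 of cohort 2. Other settings gave 97 (cohort 2 alone) to 198 (without knockouts 92 and 74 of cohort 2, chosen after seeing the data). For dependence on rearing, 596 genes had an unadjusted p under 0.05, and 921 with the choroid plexus level as covariate. No paired analysis was possible because a number names different animals in different cohorts and rearing groups.

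Single genes changed sign as follows, none of them called under any setting, and the cause was not tested. In cohort 1 alone the log2 fold change was -0.15 for Arsj, 0.0943 for Ppp1r14a, -0.0474 for Slc29a4, -0.0861 for Ccdc39, 0.0628 for Tm4sf1 and -0.0795 for Hspa5. In cohort 2 alone it was -0.0114 for Grin2d, 0.0073 for Hsph1, 0.0402 for Garem2 and 0.0767 for Mki67. With the 21 libraries alone it was 0.0228 for Garem2 and 0.026 for Mki67. With the choroid plexus level as covariate it was 0.0282 for Igfbp2, 0.0705 for Kl, 0.15 for F5, 0.0276 for Drc1 and 0.0293 for Mki67. Drc1 had 0.013 without the cohort term, 0.0049 with all 69 libraries and 0.0395 without knockouts 92 and 74. Leaving out 1 library gave -0.0477 to 0.0245 for Drc1, -0.0267 to 0.0368 for Slc29a4, -0.046 to 0.0875 for Hspa5, -0.0719 to 0.0624 for Mki67, -0.0418 to 0.0072 for Garem2 and -0.0278 to 0.0953 for Ccdc39.

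Only 2 knockouts belonged to cohort 1, so values of that cohort rest on few animals. Genes beyond the start of chromosome 8 were not analysed here.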
